A study of Mus musculus with 8 samples.

Results

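The mitochondrially encoded transcripts are the genes of the deposited count table whose symbol starts with mt-. They are 37 of its 51912 genes: 13 messenger RNAs (mRNAs), 2 ribosomal RNAs (rRNAs) and 22 transfer RNAs (tRNAs), taken by their symbol alone. They were compared between cells labelled control and cells labelled Sin3a conditional knockout, sorted as mesenchyme from embryonic mouse lung, with 4 libraries in each group. All 8 libraries carried Tbx4rtta, a doxycycline-dependent activator named for the mesenchymal gene Tbx4, and tetocre, a Cre recombinase under that activator. Controls had 1 floxed and 1 wild-type allele (Sin3a F/+), and the conditional knockout (Sin3a CKO) had both alleles floxed (Sin3a F/F). Pregnant mothers were fed doxycycline at embryonic day 12 to switch Cre on, and cells were taken at embryonic day 16. The controls thus had Cre, doxycycline and a floxed allele as well. Sin3a is the scaffold of a histone deacetylase corepressor complex.

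Each mouse mitochondrion holds circular DNA that is read from both strands as long precursor RNAs. The precursors are cut mostly at the tRNAs that sit between the other genes, which frees the mRNAs and rRNAs. The mRNAs encode core subunits of respiratory complexes I, III and IV and of ATP synthase, while all other proteins of these complexes, and the whole machinery that copies and reads the mitochondrial DNA, come from nuclear genes. Pieces of mitochondrial DNA have also been inserted into nuclear chromosomes during evolution, and such nuclear copies can attract reads from the mitochondrial RNA.

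Library totals ranged from 96098322 to 108493347 counts. Of the 20315 genes with enough counts to test, 3518 were higher and 3274 lower in Sin3a CKO, which is 17.3% and 16.1% of them (edgeR's quasi-likelihood test, Benjamini-Hochberg adjusted p under 0.05). Sin3a itself had 51.4 ± 5.94 CPM (scaled counts per 1e6, mean ± SD, n = 4, as in all means below) in Control and 58.0 ± 3.78 CPM in Sin3a CKO, and its log2 fold change of 0.17 ± 0.09 (SE) did not pass (adjusted p = 0.191). A count over the whole gene does not check the deletion of the floxed part. Library identifiers began with 3 prefixes, whose meaning the labels do not give: s686 for Control 1, Control 2 and Sin3a CKO 4, s1244 for Control 3 and Sin3a CKO 1 to 3, and s722 for Control 4 alone. Mesenchyme markers summed to 18778 to 25625 CPM in Control and 13530 to 15239 CPM in Sin3a CKO, and 6 of 10 were lower. Erythroid markers summed to 101.8 to 884 CPM in Control and 1098 to 4291 CPM in Sin3a CKO, and 6 of 11 were higher. Of the other marker lists, 1 of 10 endothelial, 1 of 6 mesothelial and 3 of 8 neural genes were lower, and no epithelial, leukocyte or cardiomyocyte gene was called. With the identifier prefix as a block, 9 of 10 endothelial, 2 mesothelial, 1 leukocyte and 1 cardiomyocyte gene were lower. Epithelial markers had a median log2 fold change of 1.19 and summed to 170.5 to 560 CPM in Control and 150.6 to 1431 CPM in Sin3a CKO. No marker of any list was at 0 in every library. The part of these shifts in the mitochondrial results was not tested. The labels call the cells sorted mesenchyme and the tissue bulk lung, and fewer cells of a type and less RNA per cell cannot be told apart in such libraries.

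Nuclear copies decide how the mitochondrial rows can be read, so their sequences come first. A search of transcripts at 95% identity or more over at least 80% of the shorter sequence found 11 nuclear pseudogenes that copy 9 of the mRNAs. Of these, 7 lie side by side on the minus strand of chromosome 1 (GRCm38, 24611535 to 24616197). The pseudogene Gm28437 equals mt-Co3 over all its 783 bases, and Gm10222 equals mt-Nd4l over all its 294 bases. No read that lies inside these stretches can be placed by its sequence. Their first 60 bases, from GENCODE M21 transcripts on GRCm38, show the shared text, which is the mitochondrial plus strand at chrM:8607-8666 and chrM:9877-9936 and the minus strand at chr1:24613912-24613971 and chr1:24612641-24612700. No base differs, so none is in capitals:
mt-Co3 and Gm28437: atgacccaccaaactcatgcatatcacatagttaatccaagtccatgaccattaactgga
mt-Nd4l and Gm10222: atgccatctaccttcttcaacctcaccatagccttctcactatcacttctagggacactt

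A further pair of copies differ from their mitochondrial gene at few bases. Gm28438 differs from mt-Nd3 over 345 bases at 1 position, T3C, counted from 1 at the 5′ end of the mitochondrial gene. Gm29216 matches the last 492 bases of mt-Co1 apart from 6 substitutions, T1056A, C1057T, A1059G, A1060G, C1062A and A1066T, all at the start of the copy. A read that lies inside either copied stretch and covers none of these bases cannot be placed by its sequence. The stretches below are shown because they hold all of these differences. Capitals mark the differing bases. The mitochondrial ones are plus strand at chrM:9459-9498 and chrM:6381-6430, and the copies are minus strand at chr1:24613080-24613119 and chr1:24616148-24616197:
mt-Nd3: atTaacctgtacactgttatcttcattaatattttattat
Gm28438: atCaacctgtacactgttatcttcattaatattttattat
mt-Co1: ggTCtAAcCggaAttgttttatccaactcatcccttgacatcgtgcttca
Gm29216: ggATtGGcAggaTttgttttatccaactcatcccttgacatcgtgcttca

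The deposited counts were split between these pairs in very different ways. Of the counts shared by mt-Co3 and Gm28437, the mitochondrial row held 8.42% to 17.1% over the 8 libraries. For mt-Nd4l against Gm10222 it held 0% to 4.06%. Most counts of either pair were thus listed under the pseudogene, and whether they came from mitochondrial or nuclear RNA was not tested. For mt-Nd3 against Gm28438 the mitochondrial row held 39.4% to 46.8% in Control and 58.6% to 72.1% in Sin3a CKO, so the split itself separated the groups. For mt-Co1 against its copies the row held 80.5% to 82.9% in Control, and in Sin3a CKO it held 78.0%, 73.9%, 64.1% and 83.6%. Sin3a CKO 3 had the lowest mt-Co1 share and Sin3a CKO 4 the highest of all libraries. For mt-Co2 and mt-Atp6, which have identical copies as well, the row kept at least 99.2% of the counts. Each member is therefore given below also with its copies summed.

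**Figure D1:**
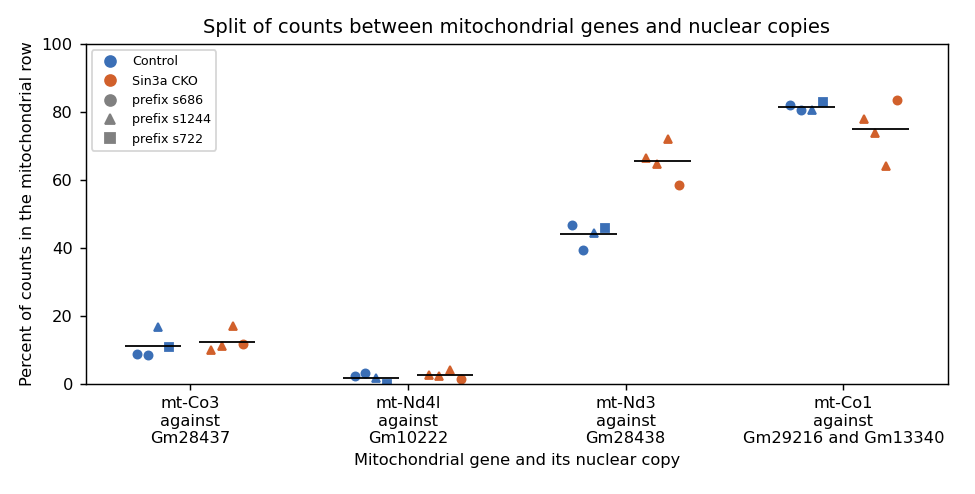
Percent of the counts of a mitochondrial gene and its nuclear copies that the deposited table lists under the mitochondrial gene (vertical axis), for the 4 genes with the most divided counts. Points are libraries, black lines are group means, and shapes give the identifier prefix. Below 20% of the counts of mt-Co3 and below 5% of those of mt-Nd4l sit in the mitochondrial row, and for mt-Nd3 the Control and Sin3a CKO libraries do not overlap.

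Mitochondrially encoded RNA took a larger part of the counts in Sin3a CKO. The 13 mRNA rows held 0.695%, 0.711%, 0.728% and 0.557% of all counts in Control 1 to 4, and 0.935%, 0.915%, 0.816% and 0.984% in Sin3a CKO 1 to 4. With nuclear copies added, the mean was 0.898% ± 0.101 (SD, n = 4) in Control and 1.20% ± 0.084 in Sin3a CKO. The rRNAs held 0.150% ± 0.0442 and 0.293% ± 0.0641. Every Sin3a CKO library lay above every Control library in both sums, but for rRNA the gap was narrow: 0.204% in Control 3 and 0.207% in Sin3a CKO 4. These sums over members have no test. With counts of haemoglobin genes left out, the difference between the group means was 0.241 percentage points for the mRNA rows, against 0.239 with them.

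**Figure D2:**
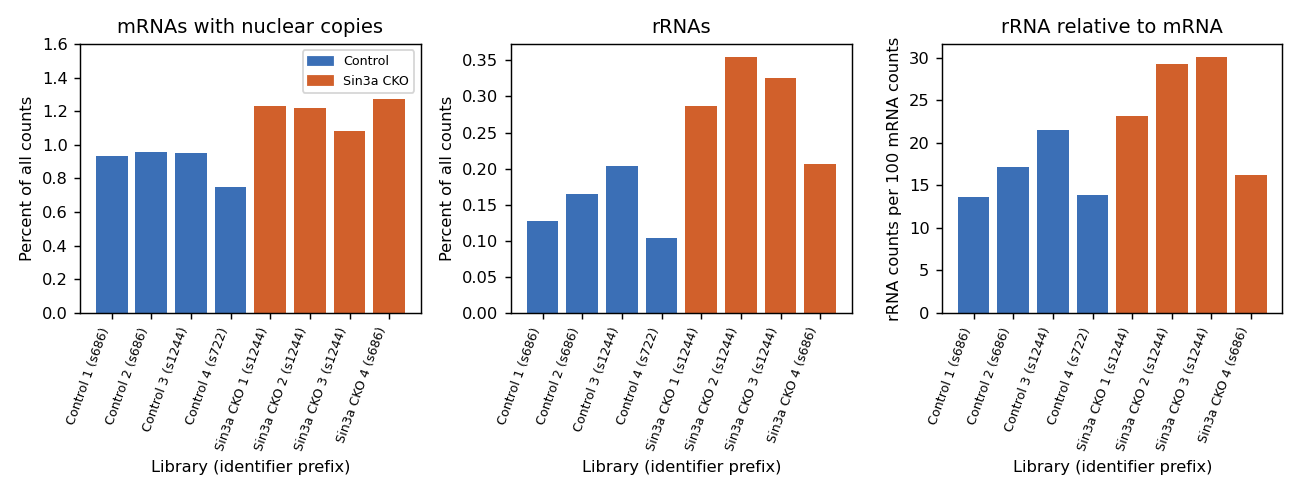
Percent of all counts in mitochondrial mRNAs with nuclear copies (left) and in rRNAs (middle), and rRNA counts per 100 mRNA counts (right), 1 bar per library, with the identifier prefix in brackets. All 4 Sin3a CKO libraries stand above the 4 Control libraries in the left panel, while in the right panel Sin3a CKO 4 (16.2) lies between Control libraries.

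Of the 37 members, 19 had enough counts to test: all 13 mRNAs, both rRNAs and 4 tRNAs. In the rows as deposited, 15 of the 19 were higher in Sin3a CKO and 0 were lower by edgeR, DESeq2 or limma-voom, where 17.3% of all tested genes were higher. No member was lower at an unadjusted p under 0.05 either. The 15 were 10 mRNAs, 2 rRNAs and 3 tRNAs. Log2 fold changes of the mRNAs ran from 0.27 to 1.22 with a median of 0.58, against a median of 0.04 over all tested genes. With copies summed, 18 of the 19 were higher, among them all 13 mRNAs, at 0.27 to 0.97. The background was again 17.3%. Control and Sin3a CKO libraries then did not overlap for any of the 13 mRNAs, a separation in this direction that 18.5% of tested genes showed.

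These calls depended on how gene length and base composition were treated. Across nuclear genes, the difference between the groups varied with the length and the GC content of the gene. Read at the members' own length and GC content, these trends alone gave a Sin3a CKO over Control difference that ran from 0.319 (mt-Co1) to 1.14 (mt-Atp8, mt-Nd3 and mt-Te) on the log2 scale. With the trends removed per library, only mt-Rnr1 was called higher (0.75 ± 0.25, adjusted p = 0.0441), while 19.4% of all tested genes were. The median of the 13 mRNAs was then 0.02, against 0.05 over all genes, and 13 of the 19 members were above 0. No mRNA was called, and none was higher at an unadjusted p under 0.05. With the GC trend alone removed 3 members were called, beside 17.5% of all tested genes, and with the length trend alone 10, beside 19.6%. Of the 19 members, 4 have a lower GC content and 7 a shorter length than the range over which the trends were held, so the trend at those genes is the value at its edge. The calls below are those of the fit without this step, and the part of length and GC content in them was not tested beyond these values.

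**Figure D3:**
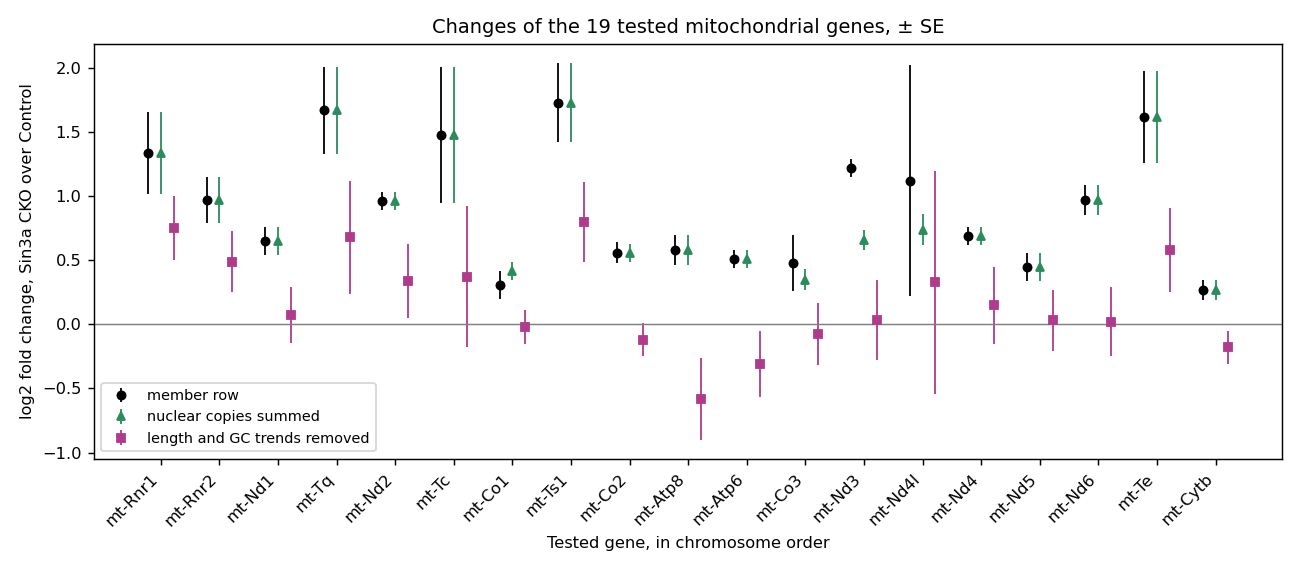
Log2 fold change (Sin3a CKO over Control) with its standard error for the 19 tested mitochondrial genes, from deposited rows (black circles), with nuclear copies summed (green triangles) and with length and GC trends removed per library (purple squares). All 19 lie above 0 in the first 2 fits, and 13 in the last.

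Both rRNAs of the mitochondrial ribosome had higher counts. How fully the library protocol captures rRNA was not tested, so the values are counts at the gene and not levels of rRNA. mt-Rnr1, the small-subunit rRNA (chrM:70-1024, plus strand), had 135.7, 181.4, 251.1 and 115.6 CPM in the Control libraries, here and below in the order 1 to 4. In Sin3a CKO it had 416.8, 548, 534.2 and 228.6 CPM. Sin3a CKO 4 lay below Control 3, so the groups overlapped. The mean went from 170.9 ± 60.1 to 431.9 ± 147.7 CPM, a log2 fold change of 1.34 ± 0.32 (adjusted p = 0.0116) that did not pass without the filter on low counts. mt-Rnr2, the large-subunit rRNA (chrM:1094-2675, plus strand), had 1102, 1383, 1668 and 1021 CPM in Control and 2438, 3012, 2814 and 1893 CPM in Sin3a CKO. These groups did not overlap, and the change was 0.97 ± 0.18 (adjusted p = 0.00285).

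The identifier prefix moved with the rRNAs. The lowest Sin3a CKO library, Sin3a CKO 4, has the prefix of Control 1 and 2, and the highest Control, Control 3, has the prefix of the other Sin3a CKO libraries. Within prefixes the mean log2 difference of mt-Rnr1 was 0.53 (s686, 1 Sin3a CKO against 2 Control) and 0.99 (s1244, 3 against 1), and that of mt-Rnr2 was 0.61 and 0.72. With the prefix as a block, a fit in which 19.4% of all tested genes were higher, mt-Rnr1 changed by 0.77 ± 0.17 (adjusted p = 0.00751) and mt-Rnr2 by 0.67 ± 0.12 (adjusted p = 0.00301). The differences of both rRNAs thus had the same sign within s686 and within s1244. The prefix s722 holds Control 4 alone, so no difference exists within it.

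The balance of rRNA counts to mRNA counts overlapped between the groups. Per 100 mRNA counts with copies there were 13.6, 17.2, 21.5 and 13.9 rRNA counts in Control 1 to 4, and 23.2, 29.2, 30.1 and 16.2 in Sin3a CKO 1 to 4. Sin3a CKO 4 lay below Control 2 and Control 3. Per 100 counts of mt-Rnr2 there were 11.3 to 15.1 of mt-Rnr1 in Control, and 17.1, 18.2, 19 and 12.1 in Sin3a CKO 1 to 4, so Sin3a CKO 4 again fell among the Controls. Haemoglobin genes took 0.00906% to 0.0929% of counts in Control, highest in Control 3, and 0.106% to 0.413% in Sin3a CKO, lowest in Sin3a CKO 4. Haemoglobin was thus ordered like the rRNAs at these points, and its part in the rRNA result was not tested.

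Complex I, which takes electrons from NADH, has 7 mitochondrially encoded subunits, and 6 of their rows were higher. mt-Nd2 (chrM:3914-4951, plus strand), a membrane subunit, had 209.5, 227.1, 218.6 and 195.1 CPM in Control and 397.4, 408, 414.4 and 432.7 CPM in Sin3a CKO. The groups lay far apart with little spread inside each, and the change was 0.96 ± 0.07 (adjusted p = 3.29e-05). mt-Nd4 (chrM:10167-11544) went from 401.7 ± 29.3 to 647.5 ± 20.5 CPM (0.69 ± 0.07, adjusted p = 0.000143). mt-Nd1 (chrM:2751-3707) went from 658.1 ± 30.1 to 1034 ± 161 CPM (0.65 ± 0.11, adjusted p = 0.00141). mt-Nd5 (chrM:11742-13565), the longest of the mRNA genes, changed by 0.45 ± 0.11 (adjusted p = 0.01), from 466.8 ± 32.7 to 637.3 ± 89.7 CPM. None of these 4 overlapped between the groups.

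mt-Nd3 had the largest row change of the mRNAs past the threshold, and a smaller one once Gm28438 was added. Its row had 43.8, 38.5, 41.4 and 38.3 CPM in Control and 96.1, 95.5, 93.0 and 93.4 CPM in Sin3a CKO, a change of 1.22 ± 0.07 (adjusted p = 1.43e-05). The copy had 51.4 ± 5.8 CPM in Control and 50.7 ± 12.4 CPM in Sin3a CKO (-0.02 ± 0.16, adjusted p = 0.942). The sequences differ at 1 base, so these separate values rest largely on how reads were divided between the pair. Summed, the pair had 93.5, 97.6, 93.1 and 83.5 CPM against 144.7, 147.4, 128.9 and 159.5 CPM, a change of 0.66 ± 0.08 (adjusted p = 0.000322). The sum separated the groups too, at a change close to that of mt-Nd1 and mt-Nd4.

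mt-Nd4l, whose row held 0 to 1.66 CPM, did not pass on its own (1.12 ± 0.90, adjusted p = 0.396). Together with Gm10222 it had 30.5, 31.2, 33.0 and 24.3 CPM in Control and 54.1, 47.7, 40.9 and 56.1 CPM in Sin3a CKO. The summed groups did not overlap, and the change was 0.74 ± 0.12 (adjusted p = 0.00148). Its reading frame also overlaps the start of mt-Nd4, so reads there can belong to either.

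mt-Nd6 (chrM:13552-14070) encodes a membrane subunit of complex I and is the only mRNA gene on the minus strand. It had 58.5, 64.6, 65.1 and 44.0 CPM in Control and 115.5, 116.6, 120 and 103.2 CPM in Sin3a CKO. All Sin3a CKO libraries were above all Controls, and the change was 0.97 ± 0.12 (adjusted p = 0.000302). Per 100 counts of the plus-strand mRNAs, mt-Nd6 had 0.646, 0.717, 0.733 and 0.54 counts in Control and 0.949, 0.964, 1.09 and 0.796 in Sin3a CKO. It was therefore higher relative to the plus-strand mRNAs in every Sin3a CKO library. The length and GC trends alone gave 0.966 at mt-Nd6, and from 0.319 (mt-Co1) to 1.14 (mt-Atp8 and mt-Nd3) at plus-strand mRNAs. With the trends removed, the change of mt-Nd6 was 0.02 ± 0.27 (adjusted p = 0.968). The part of the trends in this ratio was not tested. Whether counting used the strand is not stated in the labels, so reads of mt-Nd6 and reads of the opposite strand at that place cannot be told apart.

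Of complex IV, which passes electrons to oxygen, only mt-Co2 passed the threshold in the rows as deposited. It had 893.4, 872.7, 867 and 789.3 CPM in Control and 1253, 1267, 1171 and 1344 CPM in Sin3a CKO (0.56 ± 0.08, adjusted p = 0.000452), with no overlap. The catalytic subunit mt-Co1 (chrM:5328-6872) had 1238, 1235, 1205 and 1102 CPM against 1510, 1477, 1206 and 1717 CPM, which missed the threshold at 0.31 ± 0.11 (adjusted p = 0.0503) and passed with the prefix as a block (adjusted p = 0.0368). Sin3a CKO 3, which had the largest part listed under Gm29216, was the library that overlapped Control. The row of Gm29216 went from 272.3 ± 31.1 to 490.0 ± 144.3 CPM (0.85 ± 0.19, adjusted p = 0.00774). That copy differs from mt-Co1 only at 6 bases near its start, so its row rests largely on how reads were divided. With copies, mt-Co1 had 1512, 1531, 1496 and 1329 CPM in Control and 1935, 2000, 1881 and 2055 CPM in Sin3a CKO, and changed by 0.42 ± 0.07 (adjusted p = 0.00193). The sum no longer overlapped.

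mt-Co3, the third core subunit of complex IV, had a row of 233.9 ± 78.0 CPM in Control and 327.0 ± 59.1 CPM in Sin3a CKO (0.48 ± 0.22, adjusted p = 0.12). Its highest Control value, 348.2 CPM in Control 3, lay above 3 of the Sin3a CKO libraries, and without Control 3 the row passed. With Gm28437 it had 2161, 2135, 2078 and 2006 CPM in Control and 2722, 2709, 2388 and 2841 CPM in Sin3a CKO, a change of 0.35 ± 0.08 (adjusted p = 0.00668). Per kilobase of gene, the summed pair was the most abundant of the 13 mRNAs, at 2672 ± 87.8 CPM per kb in Control. In the rows as deposited, mt-Co3 had 298.4 ± 99.5 CPM per kb.

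The ATP synthase subunits mt-Atp8 and mt-Atp6, whose reading frames overlap on one mRNA, moved alike. mt-Atp6 (chrM:7927-8607), which forms part of the proton channel, had 999, 959.7, 985.2 and 896.7 CPM in Control and 1364, 1376, 1267 and 1458 CPM in Sin3a CKO (0.51 ± 0.07, adjusted p = 0.000684). mt-Atp8 (chrM:7766-7969) went from 65.8 ± 7.64 to 98.2 ± 15.1 CPM (0.58 ± 0.12, adjusted p = 0.00507). Neither overlapped between groups, and the reads of their shared stretch cannot be told apart.

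mt-Cytb (chrM:14145-15288), the cytochrome b of complex III, had the smallest change of the tested members. It had 1520, 1464, 1521 and 1371 CPM in Control and 1864, 1792, 1604 and 1838 CPM in Sin3a CKO. The groups did not overlap, and the change was 0.27 ± 0.08 (adjusted p = 0.0221). It did not pass under upper-quartile scaling, without the filter on low counts, or when any 1 library other than replicate 3 of either group was left out.

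**Figure D4:**
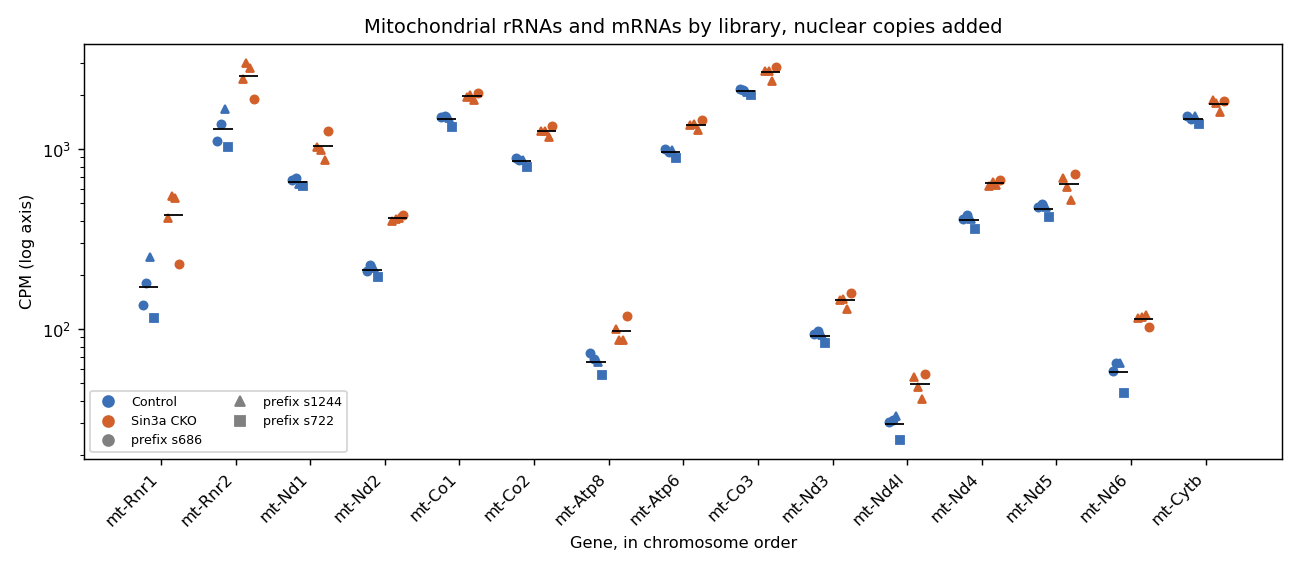
CPM (log axis) of the 2 rRNAs and 13 mRNAs in each library, nuclear copies summed, in chromosome order. Points are libraries with shapes for the identifier prefix, and black lines are group means. Control and Sin3a CKO libraries do not overlap for any of the 13 mRNAs, and for mt-Rnr1 the s686 library of Sin3a CKO lies below the s1244 library of Control.

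With copies summed, each of the 13 mRNAs was higher in Sin3a CKO inside both prefixes that hold both groups, by 0.30 to 0.99 on the log2 scale in s686 and by 0.20 to 0.89 in s1244. The mRNAs did not keep their proportions. As a percent of all mitochondrial mRNA counts with copies, mt-Nd2 was 2.3% to 2.5% in Control and 3.23% to 3.72% in Sin3a CKO, and mt-Nd4 was 4.4% to 4.74% and 5.11% to 5.69%. mt-Cytb was 16.1% to 17% in Control and 14.1% to 15.2% in Sin3a CKO. mt-Co3 was 23.2% to 24.5% and 21.5% to 22.2%. Complex I members mt-Nd1, mt-Nd2, mt-Nd3, mt-Nd4 and mt-Nd6 thus took a larger share without overlap, as did mt-Co2 and mt-Atp6, and mt-Co3 and mt-Cytb a smaller one. The shares of mt-Co1, mt-Atp8, mt-Nd4l and mt-Nd5 overlapped. These shares are a description with no test, and they were not adjusted for length and GC trends. Those trends were 0.436 for mt-Cytb and 0.591 for mt-Co3. They ran from 0.529 (mt-Nd4) to 1.14 (mt-Nd3) where the share was larger, and from 0.319 (mt-Co1) to 1.14 (mt-Atp8) where it overlapped. Their part in the shares was not tested.

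The tRNAs, short RNAs that are also the cutting points of the precursors, had few counts. They held 0.000564% ± 0.000203 of counts in Control and 0.00176% ± 0.000489 in Sin3a CKO. The 8 tRNA genes on the minus strand had 9030 counts over all libraries and the 14 on the plus strand had 236. The 4 that could be tested, mt-Tq, mt-Tc, mt-Ts1 and mt-Te, are all on the minus strand, opposite the plus-strand precursor. The 3 that passed are shown as read on the minus strand, from chrM:3772-3842, chrM:6870-6938 and chrM:14071-14139. Capitals mark the bases that overlap a gene of the plus strand, mt-Ti for mt-Tq and mt-Co1 for mt-Ts1:
mt-Tq: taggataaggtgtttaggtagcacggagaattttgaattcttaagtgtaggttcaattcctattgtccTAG
mt-Ts1: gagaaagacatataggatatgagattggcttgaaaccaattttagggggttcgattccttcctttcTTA
mt-Te: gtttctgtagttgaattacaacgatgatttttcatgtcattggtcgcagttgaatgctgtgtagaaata

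mt-Ts1, a serine tRNA, had 3.97, 4.23, 5.98 and 2.62 CPM in Control and 11.7, 16.3, 19.4 and 8.34 CPM in Sin3a CKO (1.73 ± 0.31, adjusted p = 0.00202). mt-Tq, the glutamine tRNA, had 0.334 to 0.583 CPM and 0.965 to 2.02 CPM (1.67 ± 0.34, adjusted p = 0.00443). mt-Te, the glutamate tRNA next to mt-Nd6, had 0.223 to 0.63 CPM and 1.03 to 1.75 CPM (1.62 ± 0.36, adjusted p = 0.00621). These 3 were higher in every Sin3a CKO library than in any Control. mt-Tc, the cysteine tRNA, had 0.0492 to 0.086 CPM and 0.171 to 0.225 CPM and missed the threshold (1.48 ± 0.53, adjusted p = 0.0562). The other 18 tRNAs had at most 27 counts in a library. Together they had 21 to 46 counts per Control library and 65 to 96 per Sin3a CKO library, too few for a statement on any one of them. Without strand, reads at these genes may come from mature tRNAs or from longer RNAs of either strand, which cannot be told apart. The values are thus counts at the gene and not levels of mature tRNA.

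Nuclear genes that read, mature and copy the mitochondrial DNA were called in both directions, as were genes in general (17.3% higher and 16.1% lower). Of 31 genes for mitochondrial transcription and mRNA handling, 7 were higher and 4 lower, with a median of 0.09, which is near that background. The polymerase Polrmt (0.15 ± 0.09, adjusted p = 0.263) and the DNA packaging factor Tfam (0.06 ± 0.06, adjusted p = 0.551) did not pass. Tfam had 50.1 ± 1.83 CPM in Control and 52.1 ± 2.03 CPM in Sin3a CKO. The initiation factor Tfb2m rose from 27.1 ± 2.78 to 40.1 ± 3.21 CPM (0.56 ± 0.10, adjusted p = 0.00156). Hsd17b10, a subunit of the enzyme that trims the 5′ ends of mitochondrial tRNAs, rose from 102.6 ± 3.44 to 184.4 ± 23.3 CPM (0.85 ± 0.09, adjusted p = 0.000145). Mterf2, a mitochondrial DNA-binding protein, fell from 8.93 ± 0.489 to 3.26 ± 0.293 CPM (-1.45 ± 0.13, adjusted p = 7.11e-05). The partner proteins that keep mitochondrial mRNAs stable gave 0.42 ± 0.10 for Slirp, which rose (adjusted p = 0.00896), and 0.30 ± 0.11 for Lrpprc (adjusted p = 0.0507). With length and GC trends removed, Polrmt passed at 0.57 ± 0.08 (adjusted p = 0.000449), Lrpprc at 0.42 ± 0.07 (adjusted p = 0.00122), and Slirp did not pass (adjusted p = 0.0732). With the prefix as a block, Polrmt (adjusted p = 0.0338) and Lrpprc (adjusted p = 0.00445) passed too.

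Of 24 genes for rRNA and tRNA maturation, 10 were higher and 6 lower, beside 17.3% higher and 16.1% lower over all tested genes. The 10 became 6 without Control 2 or without Sin3a CKO 2. The 6 became 2 without Control 1, 3 without Sin3a CKO 1, and 3 with the prefix as a block or with length and GC trends removed. Over all tested genes, 19.4% were higher and 16.3% lower with the prefix as a block. With length and GC trends removed, 19.4% were higher and 13.6% lower. Mrm1, which methylates the large mitochondrial rRNA, rose from 10.7 ± 0.425 to 29.6 ± 1.20 CPM (1.47 ± 0.08, adjusted p = 1.4e-05). Yrdc, a tRNA-modifying enzyme, rose by 0.68 ± 0.08 (adjusted p = 0.000276). Of 20 genes for mitochondrial DNA replication and nucleotide supply, 5 were higher and 4 lower, which is near the shares over all genes. With length and GC trends removed, 9 were higher and 3 lower. The nuclease-helicase Dna2, which also acts in the nucleus, fell from 17.6 ± 0.684 to 6.00 ± 1.22 CPM (-1.56 ± 0.15, adjusted p = 8.35e-05), and the mitochondrial topoisomerase Top1mt rose by 0.81 ± 0.12 (adjusted p = 0.000612). The DNA polymerase Polg (0.17 ± 0.09, adjusted p = 0.189) and the helicase Twnk (0.16 ± 0.08, adjusted p = 0.17) did not pass. With length and GC trends removed both passed, Polg at 0.42 ± 0.07 (adjusted p = 0.00188) and Twnk at 0.32 ± 0.08 (adjusted p = 0.0159), and Polg also did with the prefix as a block (adjusted p = 0.0101). Of 11 regulators of mitochondrial biogenesis, 1 was higher, the nuclear receptor Esrra (0.98 ± 0.10, adjusted p = 0.000112), and 3 were lower. With length and GC trends removed 3 were higher and 1 lower, with the prefix as a block 2 and 1, and without Control 1 the lower count was 1. Among the 3 lower, its relative Esrrg fell from 0.879 ± 0.113 to 0.166 ± 0.0535 CPM (-2.40 ± 0.35, adjusted p = 0.000684). The coactivator Ppargc1a had 2.77 ± 0.727 and 3.10 ± 0.979 CPM (adjusted p = 0.72).

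The nuclear subunits of the complexes that hold mitochondrially encoded proteins were called in 1 direction. Of 36 complex I subunits 18 were higher, of 9 complex III subunits 5, of 11 complex IV subunits 9, and of 15 ATP synthase subunits 5, with 0 lower in each list by edgeR, DESeq2 or limma-voom and none lower at an unadjusted p under 0.05, beside 17.3% higher and 16.1% lower over all tested genes. Ndufa1, a complex I subunit, rose from 49.6 ± 2.94 to 93.7 ± 14.2 CPM (0.92 ± 0.11, adjusted p = 0.000204). Cox5b of complex IV rose from 106.3 ± 6.77 to 180.7 ± 28.8 CPM (0.76 ± 0.11, adjusted p = 0.000631), and Cox5a by 0.69 ± 0.09 (adjusted p = 0.00048). Atp5g1, which encodes the ring subunit of ATP synthase, rose from 185.5 ± 7.2 to 339.7 ± 45.2 CPM (0.87 ± 0.10, adjusted p = 0.000156). The other named subunits, Ndufb6, Uqcrq, Uqcr11 and Atp5l, rose by 0.78 to 0.83. With length and GC trends removed, the counts higher were 14, 5, 6 and 7 in the same order, beside 19.4% of all tested genes. Ndufa1 was then no longer called (0.27 ± 0.13, adjusted p = 0.161). With the prefix as a block the counts higher were 7, 4, 5 and 4, again beside 19.4% of all tested genes. The 7 of 36 complex I subunits were then near the share over all genes. Without Control 4 the 4 lists together had 21 higher, against 37, with 8 of complex I and 5 of complex IV.

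**Figure D5:**
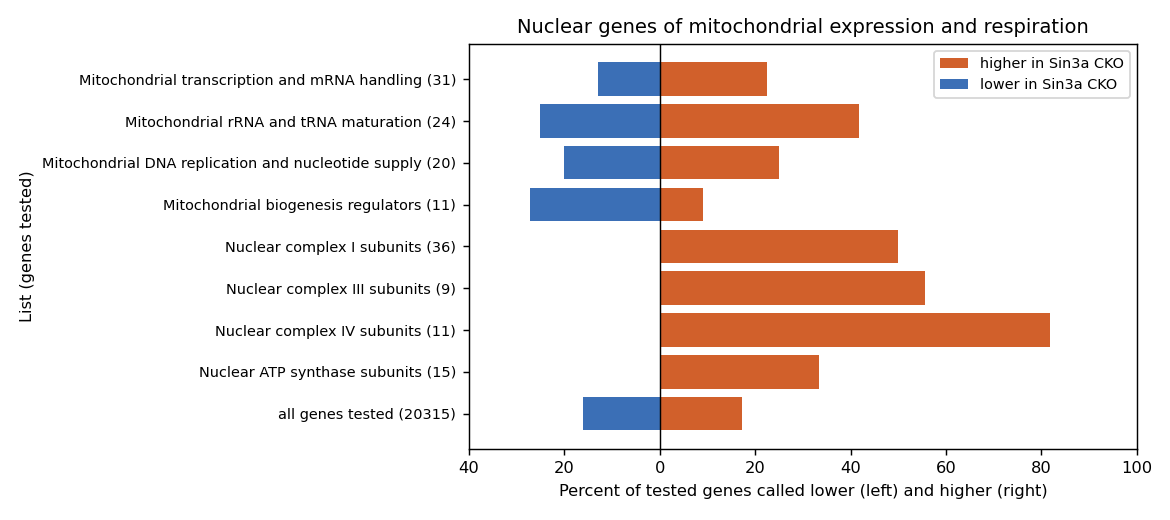
Percent of tested genes called lower (left, blue) and higher (right, orange) in Sin3a CKO for 8 lists of nuclear genes of mitochondrial expression and respiration and for all genes tested, with the number tested in brackets. The 4 lists of respiratory subunits have calls on the higher side only, and the 4 lists above them have calls on both sides.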

How the data were processed

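RNA was sequenced from cells sorted as mesenchyme from lungs of embryonic day 16, with 4 Control and 4 Sin3a CKO libraries, taken from the sample titles, which call them biological replicates. Per the labels' protocols, TRIzol was used for extraction, and SMARTer v4 and Nextera XT for the libraries, which carry no molecular identifiers, so PCR copies are counted as molecules. The submitters' processing notes name edgeR, RSEM 1.3.0, STAR 2.5.3a and the build mm10 and give no roles. The authors deposited RSEM expected counts per gene, all whole numbers. An expected count divides a read that maps to several genes among them by estimate. The labels state neither the annotation nor the use of strand.

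Counts were tested in R 4.3.3 with edgeR 4.0.16: filterByExpr with a minimum count of 10 (20315 genes), TMM scaling, robust 2-sided quasi-likelihood test with group as the only term, and Benjamini-Hochberg adjustment over all genes tested, with a call at an adjusted p under 0.05. Log2 fold changes are Sin3a CKO over Control, SE is the absolute change over the square root of F, and CPM use TMM-scaled totals. Identifiers were matched to GENCODE M21 on GRCm38 (51719 of 51912), which gave 1-based coordinates, lengths, GC content and sequences. Nuclear copies were found with BLAST 2.17.0 (word size 11). Length and GC trends were removed with a spline (5 degrees of freedom) per library, fitted on nuclear genes and held at lengths of 371 to 17692 bases and GC contents of 34.9% to 63.2%. Every tested member is named, and from each list of nuclear genes the 2 called genes with the smallest p plus 8 fixed ones. Copies are named where tested or where they show a shared sequence. The members and lists were chosen with earlier results of these data known. The fits were tested on simulated data. With 100 of 19408 genes changed at each of 2 sizes, the edgeR fit called 55% of those changed 2-fold and 28% of those changed less. Of its calls, 7.78% were false. Far fewer genes were changed there than were called in the data, so these rates need not hold for the data. A gene that did not pass may still have changed. Alternatives used DESeq2 1.42.0, limma 3.58.1, other scalings and filters, copies summed, prefix or replicate blocks, and each library left out. The replicate numbers did not pair the libraries. Libraries of a group differed beyond sampling noise, so none was counted as a repeat.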

Additional observations from a re-analysis of the deposited data

Results flagged for a closer look

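The percent of counts in mitochondrial mRNAs with nuclear copies was 0.747% in Control 4, against 0.934%, 0.960% and 0.952% in Control 1 to 3. It stood apart from the other Control libraries, with a gap to the nearest of them of 0.879 of the group's range, past Dixon's limit for 4 values. Of 64 groups of values looked at, this was the 1 that stood out, and chance alone flags about 1 in 20. Control 4 is also the only library with the prefix s722. Without it, the difference in the mRNA rows between the group means was 0.201 percentage points, against 0.239 with all libraries.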

How the results depend on the processing

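Of the 19 tested members, 15 were called higher with TMM or RLE scaling, 14 with upper-quartile scaling, 13 without a filter on low counts, 16 with DESeq2, limma-voom or the prefix block, 18 with copies summed, and 14 to 16 when 1 library was left out. None was called lower in any of these. All 19 had a log2 fold change above 0 in each of these fits. No filter left 2233 genes of the whole table called higher against 3518, and 1 rRNA against 2. A mean of at least 10 CPM left 0 tRNAs, since none was that abundant.

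With length and GC trends removed, whether alone or with copies summed, 0 mRNAs, 1 rRNA and 0 tRNAs were called higher. With the replicate block or the prefix block added there were 0 in each class, though 2 members were higher in each at an unadjusted p under 0.05. Removing the GC trend alone left 0 mRNAs and 1 rRNA, and removing the length trend alone left 6 mRNAs. Log2 fold changes that turned below 0 with both trends removed, with the replicate block and trends, with copies and trends, or with the prefix block and trends were, where negative and in that order, -0.12, -0.11 and -0.12 for mt-Co2, -0.58, -0.57, -0.59 and -0.19 for mt-Atp8, -0.31, -0.28 and -0.31 for mt-Atp6, -0.074, -0.0715, -0.26 and -0.0742 for mt-Co3, and -0.18, -0.16, -0.18 and -0.00698 for mt-Cytb. mt-Co1 gave -0.0216 with both trends removed and -0.0219 with the replicate block added. mt-Nd3 gave -0.52 with copies and trends, and mt-Nd4l gave -0.13 there and -0.29 with the prefix block and trends. With the length trend alone mt-Atp8 gave -0.0887. None of these negative changes passed the threshold, and the cause was not tested.

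Of 37 nuclear respiratory subunits called higher, 21 were counted with upper-quartile scaling, 22 without a filter, 20 with the prefix block with or without copies summed, and 21 to 37 with 1 library left out, the lowest without Control 4. Over all tested genes, 19.4% were higher with the prefix block, against 17.3% without it. The 0 subunits called lower became 2 with upper-quartile scaling and with the prefix block and trends, 1 with a mean of at least 10 CPM, with the length trend removed and in the other 3 fits with both trends removed, and 0 to 2 with 1 library left out, the highest without Sin3a CKO 3. The 17 genes of mitochondrial expression, DNA and biogenesis called lower became 11 in the 4 fits with both trends removed, and 10 to 20 with 1 library left out, the lowest without Control 1 and the highest without Sin3a CKO 3.

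The replicate numbers gave no pairing: deviations of same-numbered libraries correlated at -0.293, 0.317, -0.125 and 0.278, and 2 of 8 libraries correlated best with their own number. With the replicate block 16 of the 19 members were called higher. Depth limits the 18 untested tRNAs and mt-Tc.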
